A study of Mus musculus with 90 samples.

Results

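Collagens are the triple-helical proteins that give muscle connective tissue its tensile strength and its sheet-like basement membranes. The mouse count tables hold 44 gene symbols of collagen alpha chains (Col, a number, the letter a, a number) among 55011 symbols, and the 42 with a level of at least 1 CPM (counts scaled to a common library size) in at least 3 libraries of 1 cohort are described here. They comprise 11 of 11 fibrillar chains, 6 of 6 basement membrane (type IV) chains, 9 of 9 FACIT chains (fibril-associated collagens with interrupted triple helices) and 16 of 18 other chains. Col6a4 and Col25a1 did not reach the threshold in any cohort, their highest values in a single library being 2.24 and 2.44 CPM. A threshold of 1 CPM in 2 libraries would have kept 43 symbols and 5 CPM in 3 libraries would have kept 38. Between 19 collagens (liver) and 41 (tibialis anterior muscle) passed within a single cohort.

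The study asked how muscle mesenchymal stromal cells (MmSCs) respond to exercise, to injury and to the mechanically gated channel Piezo1. Polyadenylated RNA was sequenced from 90 libraries in 29 groups and 10 cohorts: 44 libraries of 1000 sorted MmSCs, 26 of skeletal muscle, 12 of heart and 8 of liver, the tissue libraries being made from 2 ng of RNA. MmSCs were sorted from hindlimb muscle as PDGFRa+ Sca1+ CD31- CD45- cells.

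The groups were as follows. In the first exercise cohort MmSCs came from mice labelled WT, 8 to 10 weeks old, that were sedentary (SED, n = 3) or had exercised acutely (AEX, n = 3); in the training cohort they came from sedentary (n = 3) or trained mice (EXT, n = 3) of the same age. A further cohort held MmSCs of Pdgfra-Cre mice with Piezo1 +/+ (WT) or Piezo1 f/f alleles (the labelled mutant, FL), at rest or on day 1 after acute exercise, with 3 libraries in each of the 4 groups. Another held MmSCs of both genotypes on day 1 after cardiotoxin (CTX), a myotoxin injected into muscle (n = 3 each). For the drug experiments sorted MmSCs were briefly cultured with 25 uM Yoda1, an agonist of Piezo1, or with vehicle: for 2 h in a cohort labelled Pdgfra-Cre Piezo1 WT (2 Yoda1 and 3 vehicle libraries), and for 4 h or 6 h in a cohort whose labels give no genotype (3 libraries each, with 1 vehicle group of 3). The control libraries of the drug cohorts, called vehicle here, are titled Yoda1.0h and Unstim, titles that name no vehicle. Whole tibialis anterior (TA) muscle of Pdgfra-Cre WT and FL mice was taken on days 1 (n = 4 each), 3 and 7 (n = 3 each) after CTX. Uninjured quadriceps (n = 3 each), uninjured heart (n = 3 each), heart 3 days after CTX to skeletal muscle (n = 3 each) and uninjured liver (n = 4 each) of both genotypes completed the series. All mice of the genotype comparisons carry Pdgfra-Cre, WT animals included. The Cre is driven by Pdgfra, a gene of mesenchymal cells, so that muscle, heart and liver also hold many cells in which the floxed alleles are not expected to recombine.

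A collagen molecule is a trimer of alpha chains. Prolyl and lysyl hydroxylases modify the chains in the endoplasmic reticulum, the chaperone Serpinh1 (HSP47) binds the folded helix, proteases such as Bmp1 and Adamts2 remove the propeptides of fibrillar chains, and lysyl oxidases crosslink the fibrils. In muscle, fibroblast-like stromal cells are known as the main source of the fibrillar types I, III and V and of type VI, and type IV forms the network of the basement membrane around myofibres and capillaries.

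Sequences upstream of 3 genes are shown for changes described below: Col3a1 and Col5a1 rose together in injured muscle and Col8a1, in other libraries, rose after exercise. Each is the 250 bases before the RefSeq start (GRCm38.p6), written 5′ to 3′ on the gene's own strand. Col3a1 lies on the plus strand at chr1:45311288-45311537, Col5a1 on the plus strand at chr2:27886175-27886424 and Col8a1 on the minus strand at chr16:57754738-57754987. Capitals mark matches, on either strand, to the TATA box TATAAA, the GC box GGGCGG, the core of TEAD sites GGAATG and the SMAD-binding element CAGACA.
Col3a1: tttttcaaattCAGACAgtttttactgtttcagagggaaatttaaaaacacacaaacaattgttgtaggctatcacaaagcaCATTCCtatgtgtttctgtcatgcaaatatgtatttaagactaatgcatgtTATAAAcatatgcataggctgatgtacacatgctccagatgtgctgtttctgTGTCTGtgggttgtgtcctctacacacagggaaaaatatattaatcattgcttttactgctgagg
Col5a1: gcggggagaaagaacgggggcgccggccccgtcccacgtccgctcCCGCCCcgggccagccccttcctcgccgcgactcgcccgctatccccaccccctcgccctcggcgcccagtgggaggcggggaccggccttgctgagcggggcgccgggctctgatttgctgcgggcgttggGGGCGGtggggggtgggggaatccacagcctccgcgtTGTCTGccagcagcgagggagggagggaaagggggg
Col8a1: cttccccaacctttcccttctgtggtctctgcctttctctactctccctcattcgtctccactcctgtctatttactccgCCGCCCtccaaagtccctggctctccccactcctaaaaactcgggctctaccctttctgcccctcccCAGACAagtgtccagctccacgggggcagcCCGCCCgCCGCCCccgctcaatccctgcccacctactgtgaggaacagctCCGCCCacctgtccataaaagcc
The Col3a1 window held TATAAA starting at base -117 from the start site, GGAATG on the minus strand at -168 and CAGACA at -239 and, on the minus strand, at -65. The Col5a1 window held GGGCGG at -205 (minus strand) and -73 and CAGACA at -36 (minus strand), with no TATAAA. The Col8a1 window held GGGCGG on the minus strand at -170, -73, -66 and -23 and CAGACA at -103. Over the 33 collagens with a RefSeq window, GGGCGG was present in 19, CAGACA in 8, TATAAA in 5 and GGAATG in 3, and, also on either strand, the CCAAT box in 10 and the AP-1 motif TGANTCA in 1. The shares over all 32851 windows of that length were 32.7%, 17.1%, 12.4%, 12.6%, 33.8% and 6.75%. These matches describe letters only.

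The chains of the main basement membrane trimer, Col4a1 and Col4a2, are shown for a different reason: the genes lie head to head, and either both or neither passed the test in each comparison below except that of 6 h of Yoda1. On mm10 Col4a1 occupies chr8:11198423-11312826 on the minus strand and Col4a2 occupies chr8:11312805-11449287 on the plus strand, and the annotated first exons share 22 bases, chr8:11312805-11312826, here on the plus strand with the GC box in capitals.
Col4a1 and Col4a2: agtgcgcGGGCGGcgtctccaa
Without a statement on strand in the sources used here, reads from these 22 bases cannot be assigned to 1 of the genes, but the bases are a small part of exon unions of 7464 and 6619 bases.

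MmSC libraries held between 1806248 and 10258234 counts each. Those of muscle held between 4051973 and 10226407, and those of the other tissues between 27461930 and 38376123. The labelled tissues carried their markers: the 8 stromal markers summed to 8760.2 to 9270.4 CPM in sedentary MmSCs, where 8 endothelial markers summed to 2.75 to 9.15 and 6 leukocyte markers to 5.86 to 9.30. The 4 cardiomyocyte markers summed to 36529 to 38845 CPM in WT heart and the 4 hepatocyte markers to 82697 to 96109 CPM in WT liver. Piezo1 itself measured 47.5 to 78.3 CPM in FL and 38.8 to 47.7 CPM in WT sedentary MmSCs, and 52.0 to 54.7 CPM and 59.1 to 68.8 CPM after CTX. Such sums over all exons do not test for recombination of the floxed alleles, so genotypes are those of the labels. The genotype label of the mutant TA libraries reads floxed and their titles read KO; they are called FL here. The labels do not say whether the libraries of a group came from separate animals, so p-values measure the spread between these libraries.

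Collagen transcripts made up several per cent of the RNA of MmSCs and well under 1% of that of uninjured tissue. Sedentary MmSCs of the first exercise cohort devoted 5.82, 5.87 and 5.48% of their counts to the collagens (all 44 symbols, here and in later shares), and uninjured WT quadriceps 0.419, 0.301 and 0.508%. The share was 0.202% to 0.257% in uninjured WT heart and 0.0711% to 0.120% in WT liver. Of the groups, cultured vehicle cells of the 4 h and 6 h cohort had the highest mean, with 12.6, 12.5 and 13.3%, against 6.20, 5.38 and 5.98% in the vehicle cells of the 2 h cohort; the highest single library, at 15.6%, was 1 of resting WT cells in the Cre cohort. Tables were normalised separately, so levels set across cohorts are descriptions. Col1a1, Col1a2 and Col3a1, the chains of types I and III, held 60.7% to 63.3% of collagen counts in sedentary MmSCs of the first exercise cohort, 64.5% to 78.8% in those of the training cohort, 69.5% to 80.9% and 60.2% to 68.3% in WT and FL resting cells of the Cre cohort, 37.5% to 38.5% in uninjured WT heart and 5.03% to 12.0% in WT liver.

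**Figure D1:**
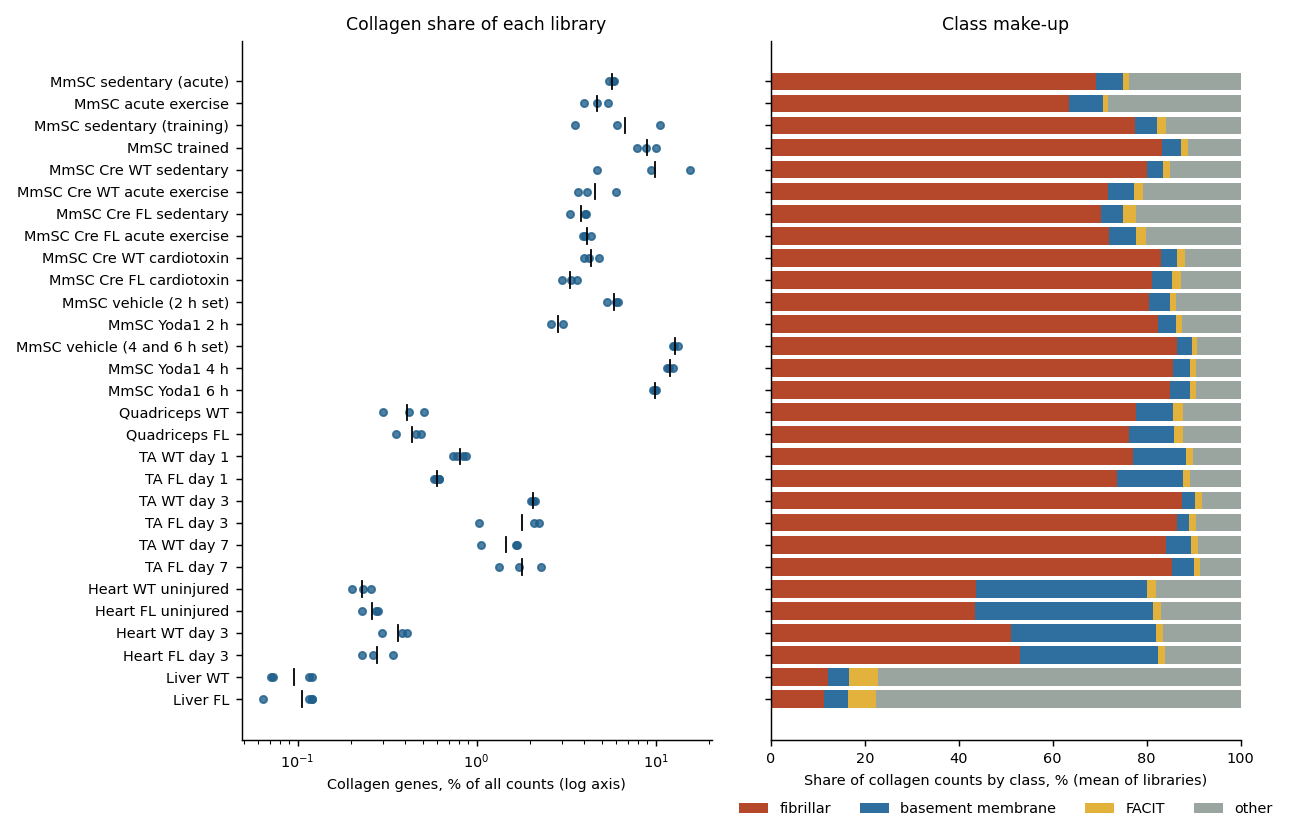
Left, the share of each library's counts that falls in all 44 collagen symbols (log axis, points are libraries, bars are group means); right, the mean share of collagen counts in each class (%), for the 29 groups. MmSC groups lie between 2.62% and 15.6%, tissues below 2.3%, and the basement membrane and other classes together take more than the fibrillar class only in uninjured heart and in liver.

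The order of the members, compared per kilobase of exon, also differed between tissues. In sedentary MmSCs of the first exercise cohort the top 3 were Col3a1 at 2286 ± 37.9 CPM per kb (SD, n = 3), Col6a1, a chain of the microfibrillar type VI, at 1485 ± 46.8, and Col1a1 at 1066 ± 123. The SDs of these values do not overlap, so the order per kb of exon union holds beyond the spread. It depends on the length used: Col1a2 measured 7151, 7005 and 6874 CPM and Col1a1 7578, 7337 and 6078 CPM in these libraries. Their exon unions are 12426 and 6563 bases. In cultured vehicle cells of the 4 h and 6 h cohort Col1a1, at 5489 ± 406, and Col3a1, at 5399.7 ± 203 CPM per kb, were within their spread. In uninjured WT heart the highest member was Col4a2 at 72.8 ± 8.10 CPM per kb, before Col3a1 at 50.9 ± 5.68 and Col4a1 at 39.0 ± 7.58 (n = 3 each). In WT liver Col18a1, the chain whose carboxy-terminal fragment is endostatin, stood at 100.1 ± 29.2 CPM per kb (n = 4), and the next member, Col14a1, a FACIT chain on fibril surfaces, at 7.25 ± 0.437.

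How closely 2 chains kept their proportion differed between pairs. The per-length ratio of Col4a1 to Col4a2 had a geometric mean of 0.717 over the 90 libraries and a range of 0.485 to 1.17, while the ratio of Col4a1 to the fibrillar Col3a1 ran from 0.0261 to 0.891. The ratio of Col6a1 to Col6a2 ran from 2.22 to 4.05 outside liver, where these genes are low. Over all 90 libraries, with the tissues pooled, other partners varied more. Col5a1 stood at 0.253 to 4.41 times Col5a2 and Col6a1 at 3.15 to 18.2 times Col6a3 (SD of the log2 ratio 0.69 and 0.61). The SD was 0.48 for Col3a1 to Col5a2, chains of different collagens, and 0.29 for Col4a1 to Col4a2. It was 1.72 for Col8a1 to Col8a2, 1.11 for Col4a5 to Col4a6, 0.88 for Col4a3 to Col4a4 and 0.77 for Col5a1 to Col5a3. For Col8a1 to Col8a2 and Col4a5 to Col4a6 it rests on the 87 and 80 libraries with both chains detected. Within MmSCs Col5a1 to Col5a2 and Col6a1 to Col6a3 varied less than Col3a1 to Col5a2, at 0.33 and 0.42 against 0.49. Col8a1 to Col8a2 and Col4a5 to Col4a6 varied more there, at 1.41 and 0.71. The other partners varied less, from 0.18 (Col6a1 to Col6a2) to 0.45 (Col4a3 to Col4a4). In TA and quadriceps muscle the SDs of Col5a1 to Col5a2 and Col6a1 to Col6a3 were 0.39 and 0.32 against 0.50 for Col3a1 to Col5a2. They were 0.26 and 0.25 against 0.24 in heart, and 0.92 and 0.66 against 0.62 in liver. Per length Col1a1 stood at 0.514 to 3.61 times Col1a2, and at 1.43 in FL sedentary MmSCs and 3.55 after 6 h of Yoda1 as group means. These ratios rest on exon unions of 6563 bases for Col1a1 and 12426 bases for Col1a2. In CPM Col1a1 was below Col1a2 in FL sedentary MmSCs, at 6613, 5159 and 5986 against 8100, 6492 and 9085 CPM. The ratios are thus not a measure of the chains in the molecule.

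How far acute exercise changes the collagens of MmSCs was addressed in 2 cohorts that share no library. In the first, Col14a1 fell and no collagen rose by the test. In bulk samples such as these, fewer cells of a type and less RNA per cell cannot be told apart. In the Cre cohort's WT mice, Col1a2, the second chain of type I, Col4a5, a minor type IV chain, and Col14a1 fell, and Col8a1, a short-chain network-forming collagen of vessels and Descemet's membrane, rose.

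Col14a1 in the first cohort measured 713, 513 and 637 CPM in the SED libraries and 262, 292 and 360.1 CPM after AEX. All AEX libraries lay below all SED libraries (log2 fold change -1.03, SE 0.18, adjusted p = 0.0285 by edgeR's quasi-likelihood test with Benjamini-Hochberg adjustment, used for every adjusted p below unless another tool is named). In the WT libraries of the Cre cohort Col14a1 measured 685, 1291 and 1478 CPM at rest and 512, 569 and 588 CPM after AEX, again without overlap (log2 fold change -1.05, SE 0.24, adjusted p = 0.0392). Col8a1, named in the first cohort because it was called in the other, measured 155, 293 and 260.1 CPM in SED and 441, 1021 and 755 CPM in AEX libraries of the first cohort. These groups did not overlap, but the difference missed the threshold (log2 fold change 1.65, SE 0.33, adjusted p = 0.0730), with an adjusted p of 2.54e-07 by DESeq2. In the Cre cohort Col8a1 measured 286, 348 and 316 CPM in WT SED and 822, 798 and 892 CPM in WT AEX libraries (log2 fold change 1.40, SE 0.29, adjusted p = 0.0323). The WT AEX libraries lay within 100 CPM of each other and far above the WT SED libraries.

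Of the large fibrillar chains Col1a2 alone passed the test, in the Cre cohort. Col3a1 measured 22869.5, 22206 and 22246 CPM in SED and 10991, 18351 and 14256 CPM in AEX of the first cohort (log2 fold change -0.63, SE 0.21, adjusted p = 0.205). There the groups did not overlap. In the Cre cohort's WT libraries, lettered in the order of the columns, Col3a1 measured 13761, 37306 and 76093 CPM at rest (a, b and c) and 21216, 9759 and 12554 CPM after AEX (log2 fold change -1.55, SE 0.48, adjusted p = 0.172). The resting libraries alone span more than the difference between the groups, and resting library a lies within the range of the exercised group. Col1a2 measured 10027, 18483 and 21967 CPM and 8699.6, 7059.7 and 7920.4 CPM in the same groups (log2 fold change -1.09, SE 0.23, adjusted p = 0.0310). Col1a1 differed by -0.27 (SE 0.20) on the log2 scale in the first cohort and by -1.33 (SE 0.33) in the Cre cohort, neither past the threshold. Col4a1 differed by -0.00 (SE 0.15) and -0.22 (SE 0.19) on the log2 scale in the same cohorts, neither past the threshold. Col4a5 measured 60.7, 55.4 and 78.7 CPM at rest and 36.2, 20.8 and 22.7 CPM after AEX in the Cre cohort, with no overlap (log2 fold change -1.29, SE 0.28, adjusted p = 0.0320).

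**Figure D2:**
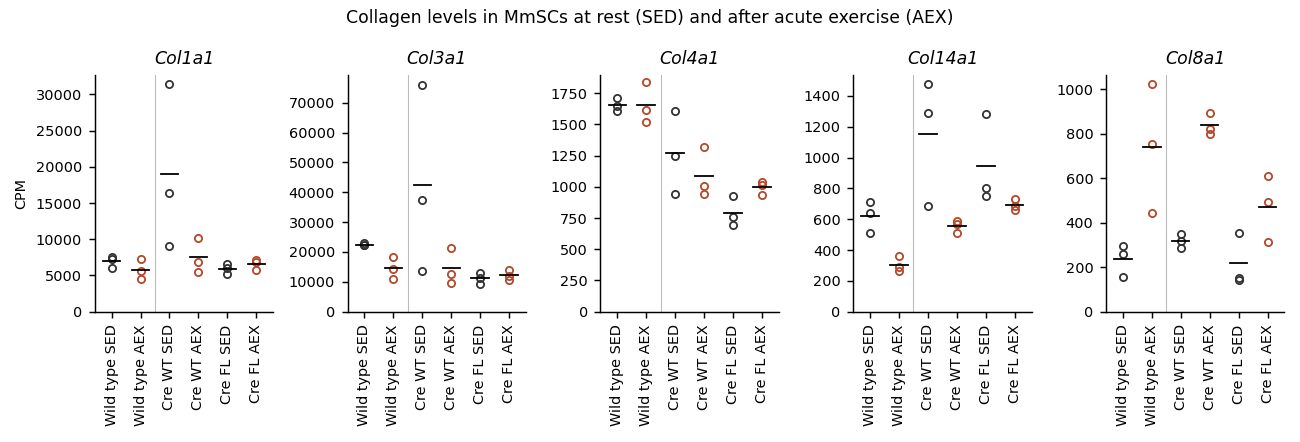
CPM of 5 collagens in MmSCs of the 2 acute exercise cohorts, with sedentary (SED, dark grey) and acutely exercised (AEX, red) libraries as circles and group means as black lines; linear axes start at 0. Col14a1 is lower and Col8a1 higher after exercise in both sets of WT mice, and the 3 WT sedentary libraries of the Cre cohort spread widely for Col1a1 and Col3a1.

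In counts, 1 of 31 collagens tested in the first cohort was called (1 lower), against 0.736% of all genes, with a median log2 fold change of -0.12 (0.00 over all genes). In the Cre cohort's WT mice 4 of 38 were called (1 higher, 3 lower), against 0.992% of all genes, with a median of -0.71 (-0.01 over all genes). Of the 31 tested in both cohorts, 18 were lower after exercise in both, 4 were higher in both, and 9 were higher in the first and lower in the second. The same counts over all genes are not given, so these signs are description. The counts of calls rest on single libraries. The first cohort's count was 0 without any 1 of the SED libraries or without AEX library 2 or 3, and 4 without AEX library 1. The count in the Cre cohort's WT mice was 12 without resting library a, 0 without b and 1 without c, and 2, 0 and 0 without exercised library a, b and c. Resting library a held the least collagen of its group. The shares of all genes called in these fits are not given. Tendon markers were higher after exercise in the first cohort, where 6 of them (Tnmd, Scx, Mkx, Kera, Thbs4, Fmod) summed to 288 to 954 CPM in SED and 1716 to 4734 CPM in AEX. In the WT groups of the Cre cohort they summed to 731 to 3600.4 CPM at rest and 3144 to 4932 CPM after AEX, ranges that overlap. Of the 6, between 4 and 5 had a mean of at least 1 CPM in these groups and none was at 0 in every library of a group. Their part in the collagen differences was not tested. Of the other genes of the pathway, 0 of 18 synthesis, 12 processing and 9 receptor and turnover genes tested in the first cohort passed the test by edgeR, with 1, 5 and 4 at an unadjusted p under 0.05 and 0, 3 and 1 called by DESeq2. In the Cre cohort's WT mice the lysyl oxidase Lox rose by 1.77 (SE 0.32), the propeptidase Adamts2 fell by 0.80 (SE 0.19) and Itga11 fell by 0.76 (SE 0.17) on the log2 scale, among 12 processing and 10 receptor and turnover genes tested.

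In FL mice no collagen was called after exercise. Col8a1 measured 143, 353 and 153 CPM at rest and 313, 494 and 607 CPM after AEX, groups that overlap (log2 fold change 1.12, SE 0.29, adjusted p = 0.248). Col14a1 measured 801, 1281 and 749.7 CPM and 729, 658 and 688 CPM (log2 fold change -0.45, SE 0.24, adjusted p = 0.663). Col1a1, Col3a1 and Col4a1 differed by 0.16 (SE 0.33), 0.14 (SE 0.47) and 0.33 (SE 0.19) on the log2 scale. The FL count was 0 of 38 by edgeR, 3 at an unadjusted p under 0.05 and 1 by DESeq2, against 0.162% of all genes (0.0135% lower), and it was 1 without resting library b. The exercise effects of the genotypes did not pass a test of their difference: the interaction called 0 of 38 collagens by edgeR and 0 by DESeq2, and 0% of all genes by edgeR. At an unadjusted p under 0.05 there were 8 collagens, a threshold at which the share of all genes is not given. The smallest p was that of Col1a2, whose exercise effects differed by 1.09 (SE 0.32) on the log2 scale, with an adjusted p of 0.737. The synthesis regulator Larp6, which binds collagen mRNA, rose after exercise in FL mice (log2 fold change 1.56, SE 0.30, adjusted p = 0.0336), a call kept in 1 of 6 fits that left out a library. For Col8a1 the interaction was -0.28 (SE 0.41), with an adjusted p of 0.963.

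At rest no collagen differed between FL and WT libraries by the test, although most values were lower in FL; the WT libraries spread widely. The collagen share was 4.70, 9.48 and 15.6% in WT libraries a, b and c and 4.02, 3.34 and 4.09% in FL libraries. Col1a1 measured 9096, 16378 and 31402 CPM in WT and 6613, 5159 and 5986 CPM in FL, without overlap (log2 fold change -1.68, SE 0.33, adjusted p = 0.159). Col3a1 differed by -1.93 (SE 0.48) and Col4a1 by -0.68 (SE 0.19) on the log2 scale (adjusted p = 0.317 and 0.332). Of 38 collagens 31 were lower in FL in sign, 14 had an unadjusted p under 0.05, and 0 were called by edgeR against 7 by DESeq2 (0.00675% of all genes by edgeR). That share belongs to the edgeR calls alone, and none is given for the unadjusted and DESeq2 counts. The median over collagens was -0.56, against 0.01 over all genes. Without WT library a, which held the least collagen of the 3, 14 collagens were called. Leaving it out widens the difference in collagen share between the genotypes. The share of all genes called in that fit is not given. After exercise the genotypes differed by a median of 0.02 over collagens, with 0 called by edgeR and by DESeq2, 4 at an unadjusted p under 0.05 and 0% of all genes called. The resting WT libraries enter both the exercise and the genotype comparison, whose values are therefore not independent. The median coefficient of variation of collagens within this group was 36.0%, against 9.34% in the sedentary group of the first cohort.

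After exercise training no collagen passed the test. Col1a1 measured 5302, 9559 and 21111 CPM in SED and 20127, 14525 and 15012 CPM in EXT libraries. Col3a1 measured 12163, 25061 and 51094 CPM and 50019, 42059.6 and 37292 CPM. For both genes the sedentary libraries span a wider range than the trained ones and enclose them. Their log2 fold changes were 0.47 (SE 0.56) and 0.55 (SE 0.56), with adjusted p = 0.818 and 0.776. Col4a1 differed by 0.29 (SE 0.16). Col27a1, a fibrillar chain of cartilage, had the smallest p of the family, at 30.0, 27.6 and 25.8 CPM in SED and 17.5, 17.1 and 16.7 CPM in EXT, groups that do not overlap (log2 fold change -0.70, SE 0.16, adjusted p = 0.0780). By edgeR 0 of 35 collagens were called, 5 had an unadjusted p under 0.05 and 1 was called by DESeq2 (0.484% of all genes by edgeR), and 2 were called without SED library 3. Among 12 receptors and turnover genes, 10 of them tested, the collagen-degrading Ctsk (cathepsin K) and Mmp14 rose by 0.92 (SE 0.14) and 0.60 (SE 0.12), and none fell.

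Collagen transcripts were lower with Yoda1 than with vehicle at 2 h and at 6 h, and at 4 h few differed. At 2 h 17 of 35 collagens fell and none rose, where 11.2% of all genes were called (5.94% lower, 5.3% higher). The collagen share was 6.20, 5.38 and 5.98% in vehicle and 2.62 and 3.05% in Yoda1 libraries. The calls took in 7 of 10 fibrillar, 2 of 6 basement membrane, 2 of 5 FACIT and 6 of 14 other chains tested. The median log2 fold change of collagens was -1.01, against -0.03 over all genes.

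Col1a1 measured 17291, 17368 and 18045 CPM with vehicle and 10125 and 9409 CPM after 2 h (log2 fold change -0.85, SE 0.12, adjusted p = 0.00217). Col3a1 measured 18106, 14642 and 14239 CPM and 5388 and 6132 CPM (log2 fold change -1.44, SE 0.15, adjusted p = 0.000706). Both Yoda1 libraries lay below all vehicle libraries for these chains. Col4a1 measured 1225, 835 and 1109 CPM with vehicle and 281 and 451 CPM after 2 h, and its partner Col4a2 also fell. Their log2 fold changes were -1.53 (SE 0.23) and -1.61 (SE 0.19). Col5a2, a chain of the type V molecules that nucleate fibrils, fell to 516 and 582 CPM from 2081, 1405 and 1587 CPM. Col6a2 fell by 1.48 (SE 0.17). The FACIT chain Col16a1 measured 206, 123 and 168 CPM with vehicle and 17.3 and 55.3 CPM after 2 h (-2.25 (SE 0.41)), and Col11a2, a minor fibrillar chain, 19.4, 20.1 and 22.7 CPM and 2.78 and 4.26 CPM. Col13a1, a transmembrane collagen, measured 4.10, 2.01 and 5.46 CPM with vehicle and was at 0 in both Yoda1 libraries. Against a floor of 3 counts over both libraries its vehicle mean was at least 6.63-fold higher, for counting error only.

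The libraries of the 2 h cohort also differed in technical respects that move with this result. The Yoda1 libraries held 3416913 and 1806248 counts and 19635 and 18962 detected genes, the vehicle libraries 4667436 to 5621061 counts and 22782 to 23621 genes. Genes of any kind in the top 25% of both transcript length and GC content, a class that holds 18 of the 35 collagens tested, had a median log2 fold change of -0.78, with 20.9% of 507 called lower. Length and GC content are those of the longest GENCODE M21 transcript of each symbol, here and below. The part of depth, length and GC content in the collagen decrease was not tested. The number of calls was 8 without vehicle library 1, 9 without vehicle library 3 and 26 without Yoda1 library 2, and 8 collagens, Col1a1, Col3a1, Col4a1 and Col4a2 among them, were called in each of the 5 fits that left out a library, of which 2 left 1 Yoda1 library, assumed there to vary like the vehicle libraries; Col11a2 and Col16a1 were called in 3 of 5 and Col13a1 in 2. The 6 mural cell markers summed to 159 to 232 CPM with vehicle and 77.7 to 96.3 CPM after 2 h (5 of 6 and 4 of 6 at a mean of 1 CPM or more), and their part was not tested. Of the other genes of the pathway, beside 5.94% of all genes lower and 5.3% higher, some moved in each direction: of 19 synthesis genes tested 3 fell and 1 rose, the chaperone Serpinh1 (0.77 (SE 0.13)), and Crtap, a partner of prolyl 3-hydroxylase, fell by 1.45 (SE 0.17). Of 12 processing and crosslinking genes 4 fell, among them the procollagen protease Bmp1 (-1.15 (SE 0.16)) and the oxidase Loxl1 (-1.13 (SE 0.15)). Mrc2, the endocytic collagen receptor, fell by 2.06 (SE 0.23).

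At 4 h, in the other drug cohort, 3 of 38 collagens were called, 2 higher and 1 lower, against 5.71% of all genes (3.58% higher, 2.12% lower), and the collagen share was 12.5, 11.9 and 11.6% with Yoda1 and 12.6, 12.5 and 13.3% with vehicle. Col27a1 rose from 19.6, 24.5 and 20.2 CPM to 35.8, 38.6 and 39.3 CPM (log2 fold change 0.82, SE 0.15, adjusted p = 0.000385). Col16a1 rose from 167, 149.7 and 218 CPM to 269, 265 and 257 CPM (log2 fold change 0.56, SE 0.09, adjusted p = 0.000847). Neither gene's groups overlapped, and both calls held without each library in turn. Col1a2 fell, with a log2 fold change of -0.14 (SE 0.04), and Col1a1, Col3a1 and Col4a1 differed by -0.12 (SE 0.05), -0.11 (SE 0.03) and -0.08 (SE 0.04) on the log2 scale without passing the test. The count was 5 without vehicle library 3 or without 4 h library 1.

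At 6 h 16 collagens fell and 2 rose among 38 tested, against 13.2% of all genes called (6.72% lower and 6.53% higher). The 4 h and 6 h groups share the vehicle libraries. The collagen share was 9.95, 9.66 and 10.1% after 6 h. Col3a1 measured 52181, 51556 and 55273 CPM with vehicle and 36781, 37194 and 39203 CPM after 6 h (log2 fold change -0.49, SE 0.03, adjusted p = 2.17e-12). Col1a1 measured 35331, 33775 and 38968 CPM and 26182, 24595 and 26716 CPM (log2 fold change -0.48, SE 0.05, adjusted p = 3.65e-06). The 6 h libraries agreed closely and lay below every vehicle library, as they did for Col1a2 (-0.52 (SE 0.04)), for the type VI chains Col6a1 and Col6a2 (-0.46 (SE 0.04) and -0.42 (SE 0.04)) and for Col14a1 (-0.42 (SE 0.05)). The low-level Col6a6 and Col11a1 fell, with log2 fold changes of -0.56 (SE 0.11) and -0.53 (SE 0.14). Col4a1 fell from 2119, 2057 and 2032 CPM to 1784, 1792 and 1916 CPM (log2 fold change -0.18, SE 0.04, adjusted p = 0.00545). Its partner Col4a2 measured 1879.9, 1754 and 2251 CPM and 1899, 1988 and 2174 CPM and did not differ beyond its error (0.04 (SE 0.08)). Col12a1, a FACIT chain of tendon and fascia, rose from 198, 199.5 and 221 CPM to 239, 248 and 277 CPM (log2 fold change 0.31, SE 0.07, adjusted p = 0.00127). Col13a1 rose by 1.63 (SE 0.53) at under 5 CPM, with overlapping groups and a call in 2 of 6 fits that left out a library.

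**Figure D3:**
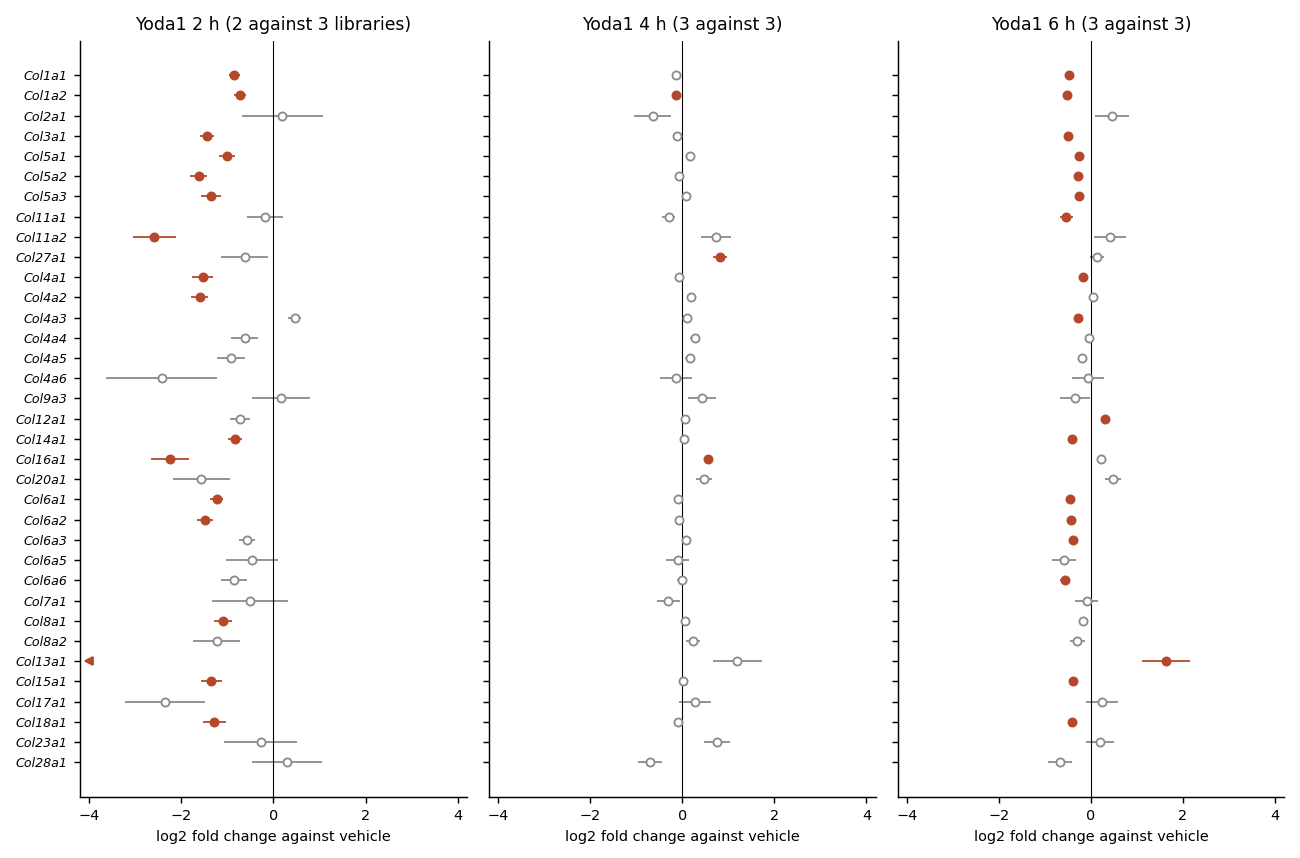
log2 fold changes of collagens tested at all 3 times, against the vehicle group of the same cohort (2 h in 1 cohort, 4 h and 6 h in another, which share vehicle libraries); bars are standard errors and filled red points passed an adjusted p of 0.05. Col13a1 at 2 h, at 0 in both Yoda1 libraries, is drawn as an arrow at the left edge; the 2 h and 6 h panels lie mostly left of 0 and the 4 h panel around 0.

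The 6 h decrease was small per gene and steady across libraries: 17 of the 18 calls held in every fit that left out 1 library, and the group median was -0.22 (-0.00 over all genes). Long, GC-rich genes of any kind had a median of -0.10 at 6 h, with 11.3% called lower. Stromal markers moved with the collagens, the 8 genes summing to 3984 to 4182 CPM with vehicle and 3024 to 3089 CPM after 6 h, with none at 0, and the 6 tendon markers to 2780.2 to 3654 and 2156 to 2741 CPM. Their part was not tested. Set directly against 4 h, the 6 h libraries had 20 of 38 collagens lower and 1 higher (10.9% of all genes called, 5.7% lower and 5.25% higher). Between these times Col1a1, Col3a1 and Col27a1 fell, with log2 fold changes of -0.36 (SE 0.05), -0.39 (SE 0.03) and -0.69 (SE 0.15), and Col12a1 rose by 0.25 (SE 0.07).

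Of the synthesis genes, 7 of 19 fell at 6 h and 1 rose, beside 6.72% of all genes lower and 6.53% higher. Serpinh1 and the lysyl hydroxylase Plod1 fell, with log2 fold changes of -0.46 (SE 0.06) and -0.70 (SE 0.10). Plod2, the telopeptide lysyl hydroxylase, rose by 0.80 (SE 0.11), having risen by 0.73 (SE 0.11) at 4 h and fallen by 1.19 (SE 0.24) in the 2 h cohort. Among processing genes 6 of 12 fell and none rose, with Loxl3 at -0.76 (SE 0.11) and the propeptidase enhancer Pcolce at -0.53 (SE 0.05). Of 11 receptors and turnover genes tested 2 rose, Ctsk (0.32 (SE 0.05)) and Mrc2 (0.31 (SE 0.10)), and the collagen-binding integrin chain Itga11 fell by 0.50 (SE 0.10).

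After cardiotoxin, sorted MmSCs of FL mice held less of several collagens than those of WT mice on day 1. Of 33 collagens tested 7 were lower in FL and none was higher, against 1.79% of all genes called (1.35% lower, 0.44% higher). They comprised 4 of 9 fibrillar chains tested, 1 of 5 FACIT chains, 2 of 13 other chains and none of the 6 basement membrane chains. Col3a1 measured 15505, 19959 and 17235 CPM in WT and 12798, 13849 and 10874 CPM in FL (log2 fold change -0.49, SE 0.10, adjusted p = 0.0451). Col6a3, the large chain of type VI, measured 1269, 1321 and 1319 CPM and 1048, 1032 and 933 CPM (log2 fold change -0.38, SE 0.06, adjusted p = 0.00595). Neither pair of groups overlapped, and Col6a3 was the 1 collagen called in all 6 fits that left out a library. Col1a2, Col5a1, Col5a2 and Col14a1 were lower in FL, with log2 fold changes of -0.43 (SE 0.08), -0.40 (SE 0.08), -0.35 (SE 0.07) and -0.46 (SE 0.08). Col8a2, a partner of Col8a1 also lower in FL, at 17.9, 16.7 and 11.6 CPM in WT and 7.18, 8.42 and 7.45 CPM in FL, did not overlap either (adjusted p = 0.0206). Col1a1 did not overlap between genotypes but missed the threshold (log2 fold change -0.37, SE 0.12, adjusted p = 0.170), and Col4a1 differed by -0.12 (SE 0.10).

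The collagen share on day 1 after CTX was 3.98, 4.81 and 4.25% in WT and 3.38, 3.64 and 3.00% in FL libraries, and the median over collagens was -0.28 (0.01 over all genes). The count of calls was 2 without WT library 2 or FL library 1 and 1 without FL library 3, and 12 by DESeq2. Beside 1.35% of all genes, of 19 synthesis genes 2 were lower in FL, the prolyl 4-hydroxylase subunits P4ha2 (-0.51 (SE 0.09)) and P4ha3 (-1.08 (SE 0.14)), both in every fit that left out a library. None of the 12 processing genes and none of the 9 receptor and turnover genes tested was called by edgeR, with 5 and 2 at an unadjusted p under 0.05 and 1 and 0 called by DESeq2. Leukocyte markers also differed: 6 of them summed to 5.56 to 7.34 CPM in WT and 11.9 to 13.0 CPM in FL (1 of 6 and 2 of 6 at a mean of 1 CPM or more, Cd3e at 0 throughout). Their part in the collagen difference was not tested.

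In TA muscle after CTX, most of the abundant fibrillar chains rose between days 1 and 3 and the main basement membrane chains between days 3 and 7. In WT muscle 17 of 41 collagens rose and 2 fell from day 1 to day 3, where 26.8% of all genes were called (14.1% higher, 12.6% lower). From day 3 to day 7 10 rose and 1 fell (42.5% of all genes called, 20.1% higher). The share called in the later step, 26.8% of the collagens, was thus below that of all genes.

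Col1a1 in WT muscle measured 1958, 1946, 1558 and 1735 CPM on day 1, 3741, 4239 and 4162 CPM on day 3 and 3091, 4023 and 4556 CPM on day 7. It rose to day 3 (log2 fold change 1.17, SE 0.20, adjusted p = 0.000126) and did not differ beyond its error between days 3 and 7 (-0.06 (SE 0.22)). Col3a1 measured 2302, 2143, 2040.3 and 1957 CPM, 6630.1, 7212 and 6951 CPM and 6651, 9784 and 10615 CPM on the same days, with log2 fold changes of 1.72 (SE 0.25) to day 3 and 0.38 (SE 0.26) from there to day 7, the latter not past the threshold. Col5a1, a type V chain, rose from 74.6, 63.6, 61.2 and 56.8 CPM to 219.6, 257 and 319 CPM (log2 fold change 2.05, SE 0.19, adjusted p = 2.15e-08), and its partner Col5a2 rose by 1.42 (SE 0.19). Low-level chains rose as well: Col13a1 by 2.38 (SE 0.51), Col26a1 by 2.27 (SE 0.46), Col23a1 by 2.05 (SE 0.60), Col4a5 by 1.55 (SE 0.43) and Col19a1 by 1.47 (SE 0.52), all from under 4 CPM on day 1.

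Col4a1 and Col4a2 went the other way at first. Col4a1 measured 337, 324, 346 and 376 CPM on day 1, 225, 143 and 209 CPM on day 3 and 383, 481 and 379 CPM on day 7. Col4a2 measured 508, 465, 522 and 582 CPM, 281, 221 and 296 CPM and 525, 623 and 511 CPM. For both genes all day 3 libraries lay below those of days 1 and 7; the fall was -0.85 (SE 0.24) and -0.96 (SE 0.23) on the log2 scale and the rise to day 7 1.11 (SE 0.26) and 1.06 (SE 0.24) (adjusted p = 0.00120 and 0.00107). Both steps use the day 3 libraries and are not independent. The Col4a1 fall kept its call in 6 of 7 fits that left out a library, and that of Col4a2 in 7 of 7.

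The day 7 rise also took in Col15a1, a chain of the zone beneath basement membranes, from 26.4, 25.9 and 40.9 CPM to 60.7, 96.9 and 79.7 CPM (log2 fold change 1.35, SE 0.21, adjusted p = 1.12e-05), and Col6a6 from 3.25, 3.47 and 5.83 CPM to 15.7, 24.3 and 23.2 CPM (2.33 (SE 0.48)). Col7a1, of anchoring fibrils, rose by 1.51 (SE 0.30), and Col11a1, Col4a3, Col4a4, Col20a1 and Col6a5, all at low levels, rose by 1.49 (SE 0.41), 1.66 (SE 0.52), 1.69 (SE 0.58), 1.61 (SE 0.59) and 2.40 (SE 0.69). In class terms 4 of 6 basement membrane chains rose at this step and 1 of 11 fibrillar chains, against 6 of 11 fibrillar chains from day 1 to day 3. Col8a1 was the chain that fell by day 7, from 77.1, 79.8 and 76.7 CPM to 35.6, 55.3 and 56.2 CPM (log2 fold change -0.67, SE 0.21, adjusted p = 0.0110).

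**Figure D4:**
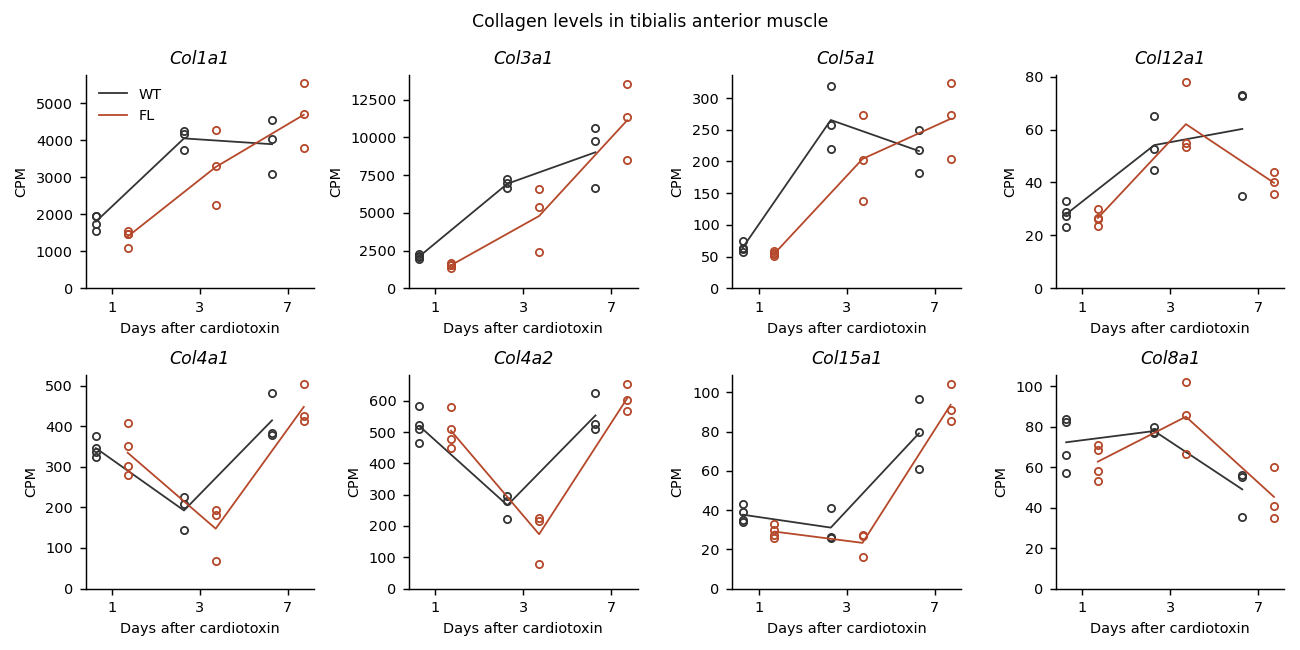
CPM of 8 collagens in whole TA muscle on days 1, 3 and 7 after cardiotoxin (days evenly spaced, linear axes from 0) in WT (dark grey, left of each day) and FL (red, right) mice; circles are libraries and lines join group means. Fibrillar chains rise from day 1 to day 3, Col4a1 and Col4a2 dip on day 3, Col15a1 rises by day 7, and 1 FL day 3 library is the lowest of its group in 7 of 8 panels.

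Markers of other cells moved over the same days. In WT muscle 6 leukocyte markers summed to 2331 to 3530.0 CPM on day 1, 5488 to 7045 on day 3 and 703 to 1219.5 on day 7. The 8 endothelial markers, of cells that make type IV collagen, summed to 747 to 896, 345 to 465 and 727 to 835 CPM, so that they were lowest on the day when Col4a1 and Col4a2 were lowest. The 8 stromal markers summed to 713 to 798, 506 to 589 and 637 to 855 CPM, and did not rise with the fibrillar chains on day 3. No endothelial or stromal marker had a mean under 1 CPM in these groups. Their part in the collagen changes was not tested.

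In FL muscle Col1a1, Col3a1 and Col5a1 rose from day 1 to day 3, and Col3a1, Col4a1 and Col4a2 from day 3 to day 7. From day 1 to day 3 13 collagens rose and 7 fell (44.6% of all genes called, 22% higher and 22.6% lower). From day 3 to day 7 17 rose and 3 fell (52.7% of all genes called, 25.8% higher and 27% lower). The 20 of 41 collagens called at each step were thus near the share of all genes. Of long, GC-rich genes of any kind 13.2% were called higher and 35.2% lower at the earlier step. At the later step 41.3% of them were called higher and 13.9% lower. Col3a1 measured 1319, 1550.4, 1573 and 1659 CPM on day 1, 5388, 2396 and 6589 CPM on day 3 and 11385, 8471 and 13559 CPM on day 7. Col4a1 measured 407, 302, 351 and 279 CPM, 193, 67.1 and 182 CPM and 426, 412 and 504 CPM. In both genes the second day 3 library stood apart, below the other libraries of its group. The earlier step was 1.23 (SE 0.20) for Col1a1, 1.65 (SE 0.25) for Col3a1, 1.90 (SE 0.19) for Col5a1, -1.19 (SE 0.25) for Col4a1 and -1.54 (SE 0.24) for Col4a2, all past the threshold in every fit that left out a library. The later step was 1.22 (SE 0.27) for Col3a1, 1.60 (SE 0.26) for Col4a1, 1.81 (SE 0.25) for Col4a2 and 2.02 (SE 0.21) for Col15a1, also called in each of those fits. Low-level chains fell at the earlier step and rose at the later one, both steps using the day 3 libraries: Col20a1 by log2 fold changes of -3.40 (SE 0.68) and 3.63 (SE 0.70) and Col4a3 of -1.93 (SE 0.54) and 2.32 (SE 0.56). Col6a6 and Col24a1 rose by 4.12 (SE 0.54) and 2.91 (SE 0.66) at the later step, and Col8a1 and Col12a1 fell, with log2 fold changes of -0.91 (SE 0.21) and -0.63 (SE 0.22).

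The genotypes share no library in these time comparisons. Of the 19 collagens called between days 1 and 3 in WT and the 20 called in FL, 15 were in both lists and all 15 had the same direction, that is 78.9% of the WT and 75.0% of the FL calls. Over all genes 3270 were in both lists, 78.8% of the WT and 47.3% of the FL calls, and 3253 of them had the same direction. Of 11 WT and 20 FL calls between days 3 and 7, 9 were in both and had the same direction, 9 of 11 WT and 9 of 20 FL calls, and over all genes 5568 were in both, 84.5% of the WT and 68.1% of the FL calls, 5565 of them in the same direction. Whether the collagens differ from other genes in this was not tested. Col4a6, a minor type IV chain, was at 0 in all FL libraries of day 7 and at 1.55, 2.32 and 1.65 CPM on day 3, at least 11.3-fold higher on day 3 against a floor of 3 counts over the group. Interaction tests called 0 of 41 collagens at either step by edgeR or DESeq2, with 6 and 9 at an unadjusted p under 0.05, while 5.85% and 1.64% of all genes were called. Leaving out WT day 1 library 4, FL day 1 library 1 or FL day 3 library 1 gave 1 call at the earlier step, and leaving out WT day 7 library 1 gave 1 at the later.

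Between genotypes no collagen passed the test on day 1 or day 7. On day 1 the collagen share was 0.871, 0.841, 0.734 and 0.776% in WT and 0.593, 0.615, 0.616 and 0.577% in FL, without overlap. Col3a1 and Col1a1 were lower in every FL library than in any WT library on that day, but the differences missed the threshold (log2 fold change -0.47, SE 0.23, adjusted p = 0.874 for Col3a1 and -0.37 (SE 0.19) for Col1a1), and Col4a1 differed by -0.05 (SE 0.22). By edgeR and by DESeq2 0 of 41 collagens were called on day 1 (5 at an unadjusted p under 0.05, 0.0774% of all genes called) and 0 on day 7 (3 at an unadjusted p under 0.05, 0% of all genes called). Those shares are of adjusted calls by edgeR and give no background for the unadjusted counts. The smallest p of day 1 was that of Col14a1 (log2 fold change -0.60, SE 0.20, adjusted p = 0.639). On day 7 Col1a1, Col3a1 and Col4a1 differed by 0.27 (SE 0.22), 0.30 (SE 0.26) and 0.11 (SE 0.25).

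On day 3 the FACIT chains Col22a1, found at tissue junctions such as that of muscle and tendon, and Col9a1 were lower in FL. Col22a1 measured 3.61, 6.36 and 16.3 CPM in WT and 2.76, 1.54 and 2.62 CPM in FL (log2 fold change -1.95, SE 0.58, adjusted p = 0.0390), and Col9a1 1.69, 2.22 and 1.40 CPM and 0.518, 0 and 0 CPM (adjusted p = 0.0218), on too few counts for a fold. Both are low, the groups did not overlap, and 2 of 41 collagens called compares with 8.98% of all genes (6.37% lower, 2.61% higher). The count was 1 without WT library 2 and 0 without WT library 3, FL library 2 or FL library 3. Col1a1, Col3a1 and Col4a1 differed by -0.31 (SE 0.22), -0.53 (SE 0.27) and -0.39 (SE 0.25). The median over collagens, -0.39, was close to that of long, GC-rich genes of any kind, -0.40. That class of genes had medians of -0.36 and 0.48 at the earlier and the later step in FL and of -0.07 and 0.02 in WT, and its part in the FL values was not tested. The 6 myogenic markers summed to 24131 to 39921 CPM in WT and 3901 to 13013 CPM in FL on day 3, all detected, and their part was not tested either.

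Other genes of the pathway also changed between days, as did 26.8% of all genes from day 1 to day 3 (14.1% higher, 12.6% lower) and 42.5% from day 3 to day 7 (20.1% higher, 22.4% lower). From day 1 to day 3 in WT muscle 5 of 19 synthesis genes rose and 2 fell, and from day 3 to day 7 1 rose and 8 fell. Of 12 processing genes 3 rose and 1 fell at the earlier step, and none rose and 4 fell at the later. Of 11 receptor and turnover genes tested 6 rose and 1 fell, then 3 rose and 1 fell. At the later step the shares called, 47.4%, 33.3% and 36.4% of the 3 lists, compare with 42.5% of all genes.

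In uninjured quadriceps, liver and heart the genotypes did not differ in any collagen by the test. In quadriceps Col1a1 measured 864, 669 and 1181 CPM in WT and 729.8, 1069 and 1005 CPM in FL, overlapping groups (0.05 (SE 0.28)), and Col3a1 and Col4a1 differed by 0.06 (SE 0.30) and 0.28 (SE 0.24). Col18a1 in liver measured 511, 539.7, 889.9 and 871 CPM in WT and 545, 888, 850.3 and 817 CPM in FL, and Col1a1, Col3a1 and Col4a1 differed there by 0.23 (SE 0.40), 0.09 (SE 0.23) and 0.31 (SE 0.25). The smallest p among collagens in quadriceps was that of Col6a5 (log2 fold change 0.98, SE 0.39, adjusted p = 0.758). In uninjured heart the differences were 0.12 (SE 0.16), 0.21 (SE 0.17) and 0.29 (SE 0.14). By edgeR and by DESeq2 0 of 33, 26 and 38 collagens were called in quadriceps, liver and heart, with 4, 0 and 3 at an unadjusted p under 0.05 and 0% of all genes called in each.

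Hearts taken 3 days after CTX to skeletal muscle showed changes in a few fibrillar chains. In WT hearts Col3a1 rose from 547, 438 and 513 CPM in uninjured mice to 790.0, 1095 and 1166 CPM (log2 fold change 1.03, SE 0.18, adjusted p = 0.0370). Col5a2 rose from 54.8, 42.5 and 50.3 CPM to 69.7, 86.4 and 90.4 CPM (log2 fold change 0.74, SE 0.13, adjusted p = 0.0498). Neither pair of groups overlapped, and the 2 calls among 38 collagens compare with 0.103% of all genes. Col1a1 did not overlap either (201, 171 and 174 CPM and 269.6, 360.5 and 335 CPM) but missed the threshold (0.82 (SE 0.16), adjusted p = 0.0995), and Col4a1 differed by 0.35 (SE 0.14). The count was 0 without uninjured library 2, 3 or 4 or day 3 library 3 or 4, and 1 without day 3 library 2.

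In FL hearts Col1a2 rose from 182, 189 and 218 CPM to 275, 359.6 and 266 CPM (log2 fold change 0.61, SE 0.13, adjusted p = 0.0238). The FACIT chains Col16a1, at 11.5, 13.9 and 9.81 CPM and 7.69, 4.81 and 4.92 CPM, and Col12a1, under 3 CPM, fell, with log2 fold changes of -1.02 (SE 0.27) and -2.13 (SE 0.53). No group overlapped its counterpart for these genes, and 3 calls of 38 compare with 4.75% of all genes. Col1a1, Col3a1 and Col4a1 differed by 0.31 (SE 0.16), 0.55 (SE 0.17) and -0.23 (SE 0.14). Long genes of any kind were lower at this step: those in the top 25% of transcript length had a median log2 fold change of -0.21, with 6.94% called lower, against 0.09 and 0.575% in the bottom 25%, and long, GC-rich genes had a median of -0.20. The FL day 3 libraries held 21567 to 22077 detected genes, the uninjured FL libraries 23425 to 24145. The part of these differences in the collagen values was not tested. The count was 0 without uninjured library 2 or 3 and 1 without day 3 library 3.

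Between genotypes 3 days after CTX 3 of 38 collagens were lower in FL hearts and none was higher, against 3.92% of all genes called. Col15a1 measured 37.4, 64.9 and 51.4 CPM in WT and 28.1, 27.1 and 14.2 CPM in FL (log2 fold change -1.15, SE 0.29, adjusted p = 0.0411). Col5a3, a type V chain, measured 44.3, 43.5 and 49.0 CPM and 30.6, 33.6 and 26.9 CPM (-0.59 (SE 0.15)), and Col18a1 26.2, 26.7 and 43.1 CPM and 21.3, 17.6 and 16.8 CPM (-0.79 (SE 0.21)). The groups of these 3 genes did not overlap. Col1a1, Col3a1 and Col4a1 differed by -0.39 (SE 0.16), -0.27 (SE 0.17) and -0.29 (SE 0.14). Long, GC-rich genes of any kind had a median of -0.21 here, beside -0.26 for the collagens, and the WT day 3 libraries held 23931 to 24246 detected genes; their part was not tested. The count was 0 without WT library 2, 3 or 4 or FL library 3, 6 without FL library 1 and 5 without FL library 2. The interaction of genotype with injury called 0 of 38 collagens by edgeR and by DESeq2, beside 0% of all genes by edgeR. It called 1 without FL day 3 library 1. At an unadjusted p under 0.05 there were 13 collagens, a threshold at which the share of all genes is not given.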

How the data were processed

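The labels describe polyadenylated RNA of sorted MmSCs and of whole tissues. The values analysed are raw read counts per gene, deposited by the authors in 1 table for 90 libraries. The submitters' processing notes name STAR 2.7.3a, featureCounts and the mm10 build; no source used here names the strandedness or the annotation behind the counts. Of the columns, 12 (the Cre cohort with and without exercise) could be matched to their group but not to a single sample.

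Collagens were taken by symbol, and the members, the lists of related genes and the comparisons were chosen with earlier results of these data known. Each of 10 cohorts was normalised and fitted on its own with edgeR 4.0.16 (genes kept by filterByExpr with a minimum count of 10, TMM scaling, robust quasi-likelihood test, Benjamini-Hochberg adjustment over all genes tested, threshold 0.05), with one mean per group and a shared spread over the groups of a cohort. CPM are TMM-scaled counts. Levels compared between genes are CPM per kilobase of the exons joined in GENCODE M21. A standard error is the log2 fold change divided by the square root of F. Floors for genes at 0 use 3 counts over the group and cover counting error only. Other settings tried were DESeq2 1.42.0, RLE in place of TMM, all genes tested whatever their count, the omission of single libraries and, where labels number the libraries, a replicate block. Shares of all genes called are those of the main edgeR fit at the adjusted threshold. Counts at an unadjusted p, by DESeq2 or in another setting have no such share beside them and were not set against all genes. The fits were tested on simulated data. In place of correlations between chains, ratios of chains are given. Named were Col1a1, Col3a1 and Col4a1 in each comparison, up to 8 called collagens in each direction by fold, up to 3 of the smallest p where none was called, and up to 4 called genes of each pathway list; Col4a2 and a few others were added as partners of named chains after their values were seen. Promoter windows are those of RefSeq on GRCm38.p6. Depth ranges are given with the results. The result of 1 list of marker genes is not reported here.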

Additional observations from a re-analysis of the deposited data

Results flagged for a closer look

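In 7 of 90 sets of 4 libraries tested, 1 library stood far from the other 3 by Dixon's criterion; chance alone flags about 1 set in 20. In FL liver, library 1 had a collagen share of 0.0640% where the others had 0.116% to 0.121%, and a share in the class of other collagens, mostly Col18a1, of 0.0505% where the others had 0.0894% to 0.0937%. In WT liver, library 2 had a fibrillar share of 0.00828% where the others had 0.0121%. In TA muscle on day 1, FL library 1 had a Col1a1 level of 1086 CPM where the others had 1475 to 1538 CPM, and a Col4a6 level of 2.24 CPM where the others had 0.150 to 0.288 CPM. FL library 4 of that day had a Col22a1 level of 11.3 CPM where the others had 4.60 to 4.80 CPM. WT library 1 of that day had a Col19a1 level of 3.30 CPM where the others had 1.97 to 2.19 CPM. Groups of 3 or fewer libraries were not tested in this way.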

How the results depend on the processing

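No called value of a named gene reversed its direction under any alternative run. Of the named genes' values short of the threshold, 14 changed sign when 1 library was left out. On the log2 scale Col4a1 ran from -0.083 to 0.062 for acute exercise in the first cohort (0.0075 with RLE scaling), and Col1a1, Col3a1 and Col4a1 from -0.37 to 0.093, -0.46 to 0.13 and -0.22 to 0.029 for FL against WT after exercise and from -0.18 to 0.27, -0.36 to 0.26 and -0.58 to 0.014 for the earlier TA interaction. Col4a1 ran from -0.15 to 0.028 for FL against WT in TA muscle on day 1 and Col1a1 from -0.18 to 0.080 for the later WT step. For FL against WT in uninjured tissue Col1a1 and Col3a1 ran from -0.13 to 0.28 and -0.16 to 0.24 in quadriceps and from -0.086 to 0.56 and -0.12 to 0.27 in liver, and Col1a1 from -0.023 to 0.25 in heart. Without the filter on low counts, the number of collagens called was 6 for acute exercise in the first cohort, 2 for training, 6 for Yoda1 at 4 h, 11 and 2 for acute exercise in Cre WT and FL mice, 12, 1 and 1 for FL against WT at rest, after exercise and for their interaction, 12 for FL against WT after CTX, 1 and 5 for FL against WT in TA muscle on days 1 and 3, 1 and 4 for the TA interactions at the earlier and later step, 7 for FL against WT in heart on day 3, 10 and 7 for day 3 against uninjured WT and FL heart, and 5 for their interaction. DESeq2 called 3 for acute exercise in the first cohort, 1 for training, 9 and 1 for exercise in Cre WT and FL mice, 7 for FL against WT at rest, 12 after CTX, 6 in heart on day 3 and 6 for day 3 against uninjured WT heart. RLE scaling gave 1 for the last of these. These are counts of collagens alone. The share of all genes called in the same setting is not given, so they cannot be set against a background.

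The replicate numbers in the labels were not treated as pairs in the main fits. In no pair of groups of 3 or more did every same-numbered pair correlate above 0.1, although single pairs reached 0.30 (liver) and 0.28 (FL TA muscle, days 3 and 1). These correlations use deviations from the means of few libraries and cannot exclude pairing. With a replicate block the counts were 2 for acute exercise, 5 for Yoda1 at 4 h, 1 for the earlier TA interaction, 6 for FL against WT in heart on day 3 and 1 for the heart interaction; the block moved no other count by over 1.5 times, and no paired analysis was possible in the Cre exercise cohort because its columns carry no sample of their own.

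Leaving out 1 library at a time gave 0 to 4 calls for acute exercise, 0 to 2 for training, 8 to 26 for Yoda1 at 2 h, 2 to 5 at 4 h, 17 to 19 at 6 h, 16 to 18 for 6 h against 4 h, 0 to 12 and 0 to 1 for exercise in Cre WT and FL mice, 0 to 14 for FL against WT at rest, 1 to 9 after CTX, 0 to 3 in TA muscle on day 3, 16 to 19 and 9 to 13 for the WT steps, 16 to 22 and 16 to 23 for the FL steps, 0 to 1 for each TA interaction, 0 to 6 for FL against WT in heart on day 3, 0 to 1 and 0 to 3 for day 3 against uninjured WT and FL heart, and 0 to 1 for their interaction. Over the single genes, DESeq2 kept the direction and the side of the threshold in 196 values and added 10 calls, and leaving out 1 library kept both in 1258, lost 144 calls and added 19. In simulated data, genes changed by 1 on the log2 scale were recovered in 22.8% of cases for Yoda1 at 2 h (12234 genes). The share was 76.2% for FL against WT in quadriceps (11704 genes), these being the lowest and highest of the 10 comparisons simulated. False calls were 20 of 161 for training, 17 of 173 for MmSCs after CTX and 17 of 184 for Yoda1 at 4 h. They were 13 of 153 for acute exercise in the first cohort and 5 of 69 for Yoda1 at 2 h. In these comparisons the share of false calls was above the threshold for adjusted p. The other comparisons had lower shares, from 3 of 97 for exercise in Cre WT mice to 9 of 173 in quadriceps. Those of quadriceps and of TA muscle on day 1 (7 of 138) were also slightly above that threshold.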
